A study of Rattus norvegicus with 20 samples.

Results

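This comparison asked what RM-HS kidneys expressed differently from RM kidneys in rats, that is, what was measured when HS was present besides RM. The labels give the abbreviations only, read here as rhabdomyolysis (RM) and haemorrhagic shock (HS) from the series' subject, kidney injury after trauma. It used 9 of the 20 bulk mRNA libraries of the series, chosen by their disease label, namely 3 RM-HS and 6 RM libraries of snap-frozen rat kidney. The other groups were 5 HS libraries and 6 Sham libraries, which entered the same fit and are given beside the results. By the design text there were 19 libraries, 5 of them RM, but 6 are labelled RM, and all 6 were used. The labels give no strain, age, sex, procedure or time of sampling. Nor does any source state that libraries came from different animals, and p-values then reflect sample-to-sample spread alone, part of which may be technical.

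In rhabdomyolysis, damaged muscle releases myoglobin, which is filtered and taken up by the proximal tubule, where its haem is broken down by haem oxygenase and its iron is stored in ferritin. In haemorrhagic shock, blood loss lowers the perfusion of the kidney, and the tubule, the endothelium and resident immune cells are exposed to ischaemia and reperfusion. The proximal tubule also takes up fructose and can make lipid from it. Fructose enters through Slc2a5, is phosphorylated by ketohexokinase and then split, and the glyceraldehyde formed is phosphorylated by Tkfc. Acly then makes cytosolic acetyl-CoA from citrate, and Fasn builds fatty acids from it.

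Values are read counts normalised between libraries by the authors with DESeq2, so they compare a gene between libraries but not genes of different length. The 9 libraries held 66.4 to 101 M reads each, of which 44.8% to 50.3% lay on 14 mitochondrial rows. A row was tested if it reached 10 in 3 or more of the 20 libraries, which 15954 of 34681 did. Fold changes are RM-HS minus RM on log2(value + 1), ± the standard error of the limma fit, and a row was called at a Benjamini-Hochberg adjusted p under 0.05. On that scale the change of genes with few reads is understated. The summed level of 10 early proximal tubule markers was 304170 to 514320 in RM-HS libraries and 283960 to 414130 in RM libraries, so both groups carried the defining genes of kidney tubule. The first letter of the library names splits the groups unevenly. All 3 RM-HS libraries are named R, whereas 1 RM library, RM 1, is named R and RM 2 to RM 6 are named S. The labels do not say what the letter stands for. RM 1 also stood apart in nephron markers, with a summed collecting duct principal cell level of 44096 against an RM median of 16463 and an RM-HS range of 11985 to 24702.

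In RM-HS against RM, 173 of 15954 rows were called (1.08%), with 63 higher (0.395%) and 110 lower (0.689%). Of all tested rows 7992 had a positive and 7949 a negative fold change. Of the 173, 65 differed at least 2-fold, 19 higher and 46 lower, and 156 had a gene symbol. RM-HS and RM values did not overlap in 161 of the 173, whereas over all tested rows the groups did not overlap in 7.76%, 4.32% higher and 3.44% lower. Without RM 1, 480 rows were called (3.01%), 161 higher (1.01%) and 319 lower (2.0%), and all 173 were among them. With the name letter as a covariate, 0 rows were called by limma, while 1183 had an unadjusted p under 0.05, and of the 173 rows 170 did. The 173 were chosen by the same contrast on the same libraries, so that share was largely fixed in advance. It does not show that the calls survive the letter. Under that covariate the median fold was 0.65 for the 63 higher rows and -0.74 for the 110 lower rows. Single genes moved more, with -0.76 for Clec9a and -2.84 for Cps1, against -1.58 and -4.01 without the covariate. Sele moved the other way, to -3.17 from -2.35. The fit of the libraries named R sets RM-HS against RM 1 alone, with the spread taken from the other groups. With only 1 RM library in that fit, its effect sizes alone are read here. In most of the 173 rows RM 1 lay on the RM-HS side of the other RM libraries, since 45 of the 63 higher rows were higher in RM 1 than in the mean of RM 2 to RM 6, and 81 of the 110 lower rows were lower. The median fold change of the 63 higher rows was 0.71 against all RM libraries and 0.53 against RM 1 alone, and that of the 110 lower rows was -0.86 and -0.71. Within HS, the libraries named S minus those named R had a median log2 difference of -0.03 over the 63 rows and 0.05 over the 110. Single lower genes lay further from 0, with 1.40 for Cps1, 1.10 for Xcr1, 0.67 for Btc and 0.53 for Clec9a. Others were negative, with -0.83 for Sele, -0.72 for Egr3 and -0.65 for Klrb1c. RM 1 is the only RM library named R, so beyond these values the group and the letter cannot be told apart.

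**Figure D1:**
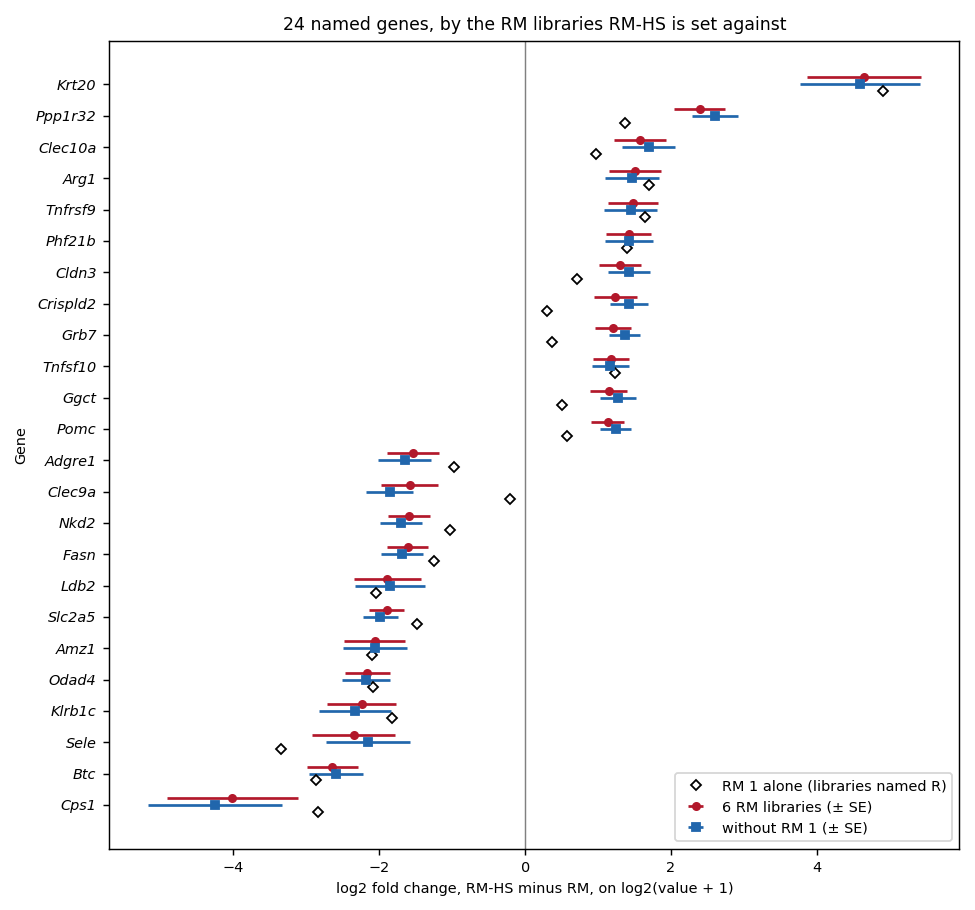
Log2 fold change of RM-HS minus RM for the 12 genes highest and the 12 lowest by the naming rule, with all 6 RM libraries (circles, ± SE), without RM 1 (squares, ± SE) and against RM 1 alone (open diamonds). The diamonds lie on the same side of 0 as the circles, which groups without overlap fix in advance, and for genes such as Clec9a (-0.21) and Crispld2 (0.30) they lie near 0.

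Leaving out each of the 9 libraries in turn gave 1 to 161 rows called higher and 18 to 319 lower. Called in each of those 9 fits were 9 rows, namely Slc2a5, Acly, Tkfc, Btc, Odad4, Klhl14, Ahctf1 and Arrb1, all lower, and Ppp1r32, higher. All of these except Arrb1 were also called under each of the 21 alternatives that do not involve the name letter, other scalings, filters and count models included.

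The fructose transporter Slc2a5 and 3 enzymes on the way from fructose to fatty acids, Tkfc, Acly and Fasn, were lower in RM-HS than in RM. Slc2a5, the fructose transporter GLUT5 (rn6 chr5:167142182-167174206), had normalised counts of 7706, 9780.3 and 3526 in the RM-HS libraries and 18042 to 30384 (median 25047) in the RM libraries. It was lower in every RM-HS library than in every RM library, RM 1 included, which had the lowest RM value (18042). Its log2 fold change was -1.90 ± 0.24 with a limma adjusted p of 0.000847, -1.98 ± 0.24 without RM 1 and -1.49 against RM 1 alone. HS and Sham kidneys had much less, with medians of 1338 and 2615, so RM-HS lay between RM and the other groups.

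Acly, ATP citrate lyase (rn6 chr10:88392248-88442845), had 9069, 11227 and 7969.7 in RM-HS and 15063 to 28587 (median 25705) in RM, and the groups did not overlap. Its log2 fold change was -1.34 ± 0.16 (limma adjusted p 0.000847), and -0.69 against RM 1 alone, whose value of 15063 was the lowest of RM. Tkfc, triokinase (rn6 chr1:226644200-226657433), had 18757, 22363 and 19337 in RM-HS and 35555 to 57378 (median 41122) in RM, again without overlap. Its fold change was -1.10 ± 0.16 (adjusted p 0.0023), and -0.82 against RM 1 alone. Fasn, fatty acid synthase (rn6 chr10:109987733-110005903), had 3768, 7705 and 2431 in RM-HS and 9834 to 18425 (median 12340) in RM. RM-HS 2 was the highest of its group and still below every RM library, and the fold change was -1.61 ± 0.28 (adjusted p 0.0133). The Fasn call was lost when RM-HS 1 or RM-HS 3 was left out.

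**Figure D2:**
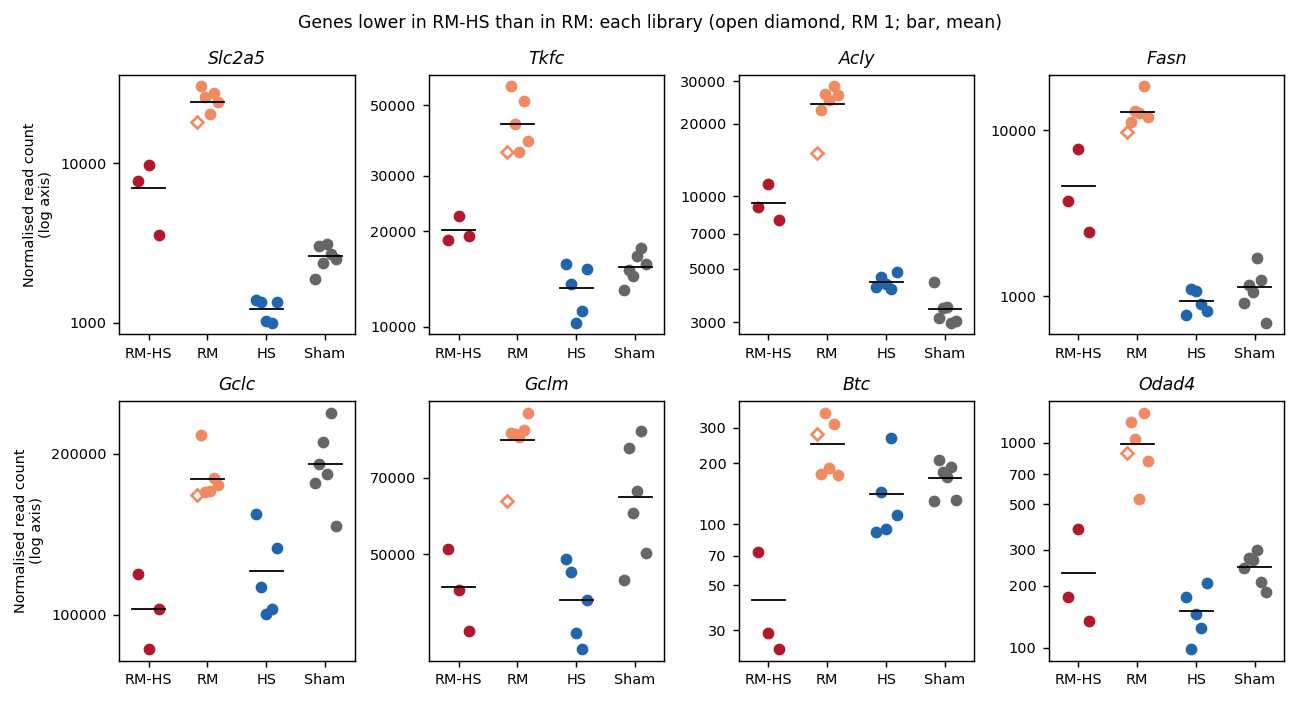
Normalised read counts (log axis, its range set for each gene) of 8 genes that were lower in RM-HS than in RM, with each library as a point, RM 1 as an open diamond and the group mean as a bar. For Slc2a5 the RM-HS libraries (3526 to 9780) lie below all RM libraries and above all HS and Sham libraries.

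The same enzymes were set against HS and Sham, which share no library with RM-HS or RM. Acly differed by 0.38 ± 0.14 between HS and Sham (adjusted p 0.0291), and its RM-HS minus RM change minus that HS minus Sham change was -1.72 ± 0.21 (adjusted p 3.24e-05), a difference that passed in 31.7% of all tested rows. For Fasn the same difference was -1.37 ± 0.37 (adjusted p 0.00791) and for Tkfc -0.86 ± 0.21 (adjusted p 0.00396), while for Slc2a5, which was also lower in HS than in Sham (-1.09 ± 0.20), it was -0.81 ± 0.31 and missed the threshold (adjusted p 0.0529).

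These 4 genes prompted a list of 18 for the pathway, written after the values had been seen. Its median fold change was -0.68, compared with 0.00 over all tested rows, and -0.33 against RM 1 alone. None of the 14 other members was called by limma, 11 of the 14 had a negative fold change, and their median was -0.43. Of all 15954 tested rows 7949 had a negative fold change. Pklr, liver-type pyruvate kinase, averaged 16367 ± 3605 in RM-HS and 28509 ± 6307 in RM (SD, n = 3 and 6) with a log2 fold change of -0.80 that did not pass (adjusted p 0.177). Mlxipl, which encodes the carbohydrate-responsive transcription factor ChREBP, averaged 2238 ± 285 in RM-HS and 3862 ± 500 in RM, and its fold change of -0.78 did not pass either (adjusted p 0.111). Srebf1, the sterol-regulated transcription factor of lipid synthesis, averaged 2192 ± 554 in RM-HS and 1936 ± 314 in RM (0.17, adjusted p 0.687). Khk, ketohexokinase, had a fold change of -0.18 and was not called. Acaca, acetyl-CoA carboxylase, was called lower when RM 1 was left out. In the cholesterol synthesis list 1 of 20 genes was called, Cyp51, a sterol demethylase, with 2678, 2947 and 2631 in RM-HS and 3155 to 5514 (median 4401) in RM. Its fold change was -0.68 ± 0.14 (adjusted p 0.0283), but -0.20 against RM 1 alone, and the list median was -0.25. Cyp51 was called in 4 of the 9 fits that leave out a library. Tm6sf2, which acts in hepatic lipid secretion, was also lower, at 748, 823 and 704 in RM-HS and 1024 to 1789 (median 1207) in RM (fold change -0.74, adjusted p 0.0342), with a call in 5 of those fits.

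The promoters of Acly, Slc2a5 and Tkfc are shown because these genes share the direction of change, and that of Fasn is not used here. Each sequence is the 250 bases before the annotated start in RefSeq, build GRCr8, written 5′ to 3′ along the gene, and 119 of the 156 called genes with a symbol were in that table. Capitals mark matches to 1 of 5 motifs searched on both strands, the CCAAT box (CCAAT), the core of the antioxidant response element (TGACNNNGC), an E box (CACGTG), the TATA box (TATAAA) and an AP-1 site (TGANTCA).
Acly (chr10:85963632-85963881, minus strand): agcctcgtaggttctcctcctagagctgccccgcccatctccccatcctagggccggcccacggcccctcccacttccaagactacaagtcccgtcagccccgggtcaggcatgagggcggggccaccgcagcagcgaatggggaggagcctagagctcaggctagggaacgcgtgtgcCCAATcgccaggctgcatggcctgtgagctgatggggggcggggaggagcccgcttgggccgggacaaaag
Slc2a5 (chr5:165865929-165866178, plus strand): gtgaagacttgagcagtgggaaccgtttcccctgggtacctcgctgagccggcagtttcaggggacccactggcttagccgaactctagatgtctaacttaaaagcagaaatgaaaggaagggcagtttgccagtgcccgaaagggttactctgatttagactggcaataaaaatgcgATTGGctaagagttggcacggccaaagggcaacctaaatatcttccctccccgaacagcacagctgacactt
Tkfc (chr1:216677658-216677907, minus strand): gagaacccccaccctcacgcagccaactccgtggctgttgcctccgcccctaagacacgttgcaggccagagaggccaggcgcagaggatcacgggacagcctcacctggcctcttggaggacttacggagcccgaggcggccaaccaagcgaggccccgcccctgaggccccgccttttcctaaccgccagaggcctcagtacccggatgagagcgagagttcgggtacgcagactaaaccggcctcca
The Acly window holds 1 CCAAT box, 71 bases before the start, and the Slc2a5 window holds its reverse complement, 72 bases before the start. The Tkfc window holds none of the 5 motifs. A CCAAT box was found in 34% of 33469 promoters of the same length and an E box in 5.59%, so these matches describe the windows and nothing more.

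Both subunits of glutamate-cysteine ligase, the rate-limiting enzyme of glutathione synthesis, were lower in RM-HS. Gclc, the catalytic subunit, had 119450, 86293 and 102420 in RM-HS and 167420 to 216550 (median 172380) in RM, and every RM-HS library lay below every RM library. Its log2 fold change was -0.81 ± 0.17 (limma adjusted p 0.0287), and -0.72 against RM 1 alone. Gclm, the modifier subunit, had 51177, 42719 and 35764 in RM-HS and 63182 to 93117 (median 84868) in RM. RM 1 (63182) was the lowest RM library and lay far from the others, and the fold change was -0.94 ± 0.19 (adjusted p 0.0263), or -0.56 against RM 1 alone. HS kidneys were lower than Sham kidneys for both genes, with log2 fold changes of -0.67 ± 0.14 for Gclc and -0.63 ± 0.16 for Gclm. The Gclm window is shown because it holds a match to the antioxidant response element core on the minus strand, 172 bases before the start, a match found in 10.1% of promoters.
Gclm (chr2:213031885-213032134, plus strand): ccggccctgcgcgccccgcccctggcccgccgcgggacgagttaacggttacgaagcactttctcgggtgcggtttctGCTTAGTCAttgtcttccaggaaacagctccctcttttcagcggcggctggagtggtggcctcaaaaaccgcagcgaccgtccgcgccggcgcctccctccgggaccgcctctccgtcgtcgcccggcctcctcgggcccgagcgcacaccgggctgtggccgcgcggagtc
Gpx1, a selenium-dependent peroxidase that uses glutathione, moved the other way, with 85847, 68271 and 92213 in RM-HS and 47216 to 58711 (median 55847) in RM (fold change 0.61 ± 0.14, adjusted p 0.044). Ggct, which breaks down gamma-glutamyl amino acids derived from glutathione, had 14364, 9993 and 15596 in RM-HS and 4111 to 9194 (median 6109) in RM (fold change 1.14 ± 0.26, adjusted p 0.0389), and 0.51 against RM 1 alone. Slc7a11, the cystine importer, had 2006, 2131 and 899 in RM-HS and 651 to 9529 (median 6086) in RM, and was not called (fold change -1.50 ± 0.75, adjusted p 0.338). RM 1, at 651, was below all 3 RM-HS libraries, so that against RM 1 alone the difference was 1.27. Of the 18 genes of cystine, glutathione and ferroptosis, 2 were called lower and 1 higher, with a median of 0.03. The shares over all tested rows were 0.689% lower and 0.395% higher. Gclc and Gclm kept their calls when RM 1, 2 or 4 was left out and Gclc also without RM 3, and lost them without any other library. Ggct and Gpx1 kept theirs only without RM 1 or RM-HS 2.

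Of 19 other genes listed for the antioxidant factor NRF2, 0 passed limma's adjusted threshold, 15 had a negative fold change, and the median was -0.38. The list holds targets of NRF2 and also Nfe2l2, the gene that encodes it. Without RM 1, members called lower included Abcc4, Pgd and Sqstm1, and against RM 1 alone the list median was 0.12. Pir, pirin, an iron-containing nuclear protein and NRF2 target, had 536, 729 and 326 in RM-HS and 627 to 1679 (median 1378) in RM, with RM 1 at 627 inside the RM-HS range. It was called lower (-1.31 ± 0.30, adjusted p 0.0385), and its difference from RM 1 alone was -0.32. The call held in 2 of the 9 fits that leave out a library.

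Haem and iron genes did not separate RM-HS from RM at this depth of replication. Hmox1, haem oxygenase 1 (rn6 chr19:14508634-14515453), had 105490, 132570 and 38141 in RM-HS and 109350 to 172380 (median 164610) in RM, overlapping between the groups, with medians of 4316 in HS and 448 in Sham. Its fold change was -0.93 ± 0.88 (adjusted p 0.645). None of the 18 haem and iron genes tested passed limma's threshold, among them Fth1 (0.22), Ftl1 (-0.11), Slc40a1 (-0.78) and Hpx (0.92), and the median was 0.01.

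Among 20 tubular injury markers 2 were called higher, both keratins, against 0.395% of all tested rows, and the list median was 0.02. Krt20, keratin 20 (rn6 chr10:87342502-87351063), had 123, 69.8 and 25.7 in the RM-HS libraries and 0 to 5.07 (median 1.48) in RM. Every RM-HS library lay above every RM library, and the log2 fold change was 4.64 ± 0.78 (limma adjusted p 0.0109), 4.59 ± 0.82 without RM 1 and 4.90 against RM 1 alone. In raw reads the gene had 191 in the RM-HS libraries together and 10 in the RM libraries, a normalised ratio of 43.6 with a 95% interval of 23.2 to 92.4 that covers counting error only. Krt20 was higher still in HS, at 275 to 1050.2 (median 410.4), and had 0 to 19.8 (median 6.69) in Sham, so RM-HS lay between HS and the groups without HS, and the difference of its 2 changes did not pass (-1.78 ± 1.03, adjusted p 0.199). The call was lost when RM-HS 1, the highest RM-HS library, was left out. Krt8, the keratin partner of simple epithelia, had 12207, 13107 and 11433 in RM-HS and 7695 to 9744 (median 8492) in RM (fold change 0.51 ± 0.11, adjusted p 0.0355), and its call held without RM 1 or RM 4 only.
The Krt20 promoter is shown because this gene had the largest increase of the genes named by rule, and it holds a TATA box 49 bases and an antioxidant response element core 83 bases before the start, found in 12.9% and 10.1% of promoters.
Krt20 (chr10:84890286-84890535, minus strand): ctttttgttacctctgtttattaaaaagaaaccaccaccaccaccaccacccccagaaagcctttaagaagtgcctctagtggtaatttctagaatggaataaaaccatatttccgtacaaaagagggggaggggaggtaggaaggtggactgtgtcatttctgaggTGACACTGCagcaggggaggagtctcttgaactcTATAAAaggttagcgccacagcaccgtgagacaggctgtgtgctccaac

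The injury markers most often measured did not pass. Havcr1, which encodes KIM-1, had 10917, 7741 and 5765 in RM-HS and 923 to 9645 (median 6071) in RM. RM 1, at 923, was the lowest of RM, so the fold change was 1.01 ± 0.71 (adjusted p 0.511) with all RM libraries, 0.60 without RM 1 and 3.09 against RM 1 alone. Lcn2, which encodes NGAL, had 27623, 24949 and 8768 in RM-HS and 293 to 18242 (median 3821) in RM, a fold change of 3.05 ± 1.60 (adjusted p 0.365). The RM libraries spread over more than the distance between the groups. Clu, clusterin, had 7922, 14106 and 5970.2 in RM-HS and 8608 to 17888 (median 13586) in RM (-0.58 ± 0.32, adjusted p 0.393), and Spp1, osteopontin, had 80979, 171870 and 48678 in RM-HS and 43763 to 221940 (median 83049) in RM (0.06 ± 0.47, adjusted p 0.971). Clu overlaps Scara3 in the annotation, and the sources used here do not say whether the authors' counting used strand.

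The secreted growth factors Btc, Hgf, Kitlg and Wnt5a were lower in RM-HS. Btc, betacellulin, a ligand of the EGF receptor (rn6 chr14:18231854-18270621), had 73, 29.1 and 24.2 in RM-HS and 175 to 355 (median 234) in RM, with RM 1 at 278. No RM-HS library reached the lowest RM library, and the log2 fold change was -2.64 ± 0.35 (limma adjusted p 0.0015), or -2.87 against RM 1 alone. HS and Sham kidneys had medians of 110.5 and 176, so the RM-HS libraries were the lowest of the series, and the change differed from that between HS and Sham by -2.29 ± 0.46 (adjusted p 0.00108). Of the other 10 genes of the EGF receptor list that were tested, 0 were called by limma. Among them were Areg (0.76), Hbegf (0.11), Egf (-0.01), Nrg1 (-0.75) and Ereg (-1.71), and 4 of the 11 tested had a positive fold change. Without RM 1, Nrg1 was called lower as well (-0.88, limma adjusted p 0.0303). Hgf, hepatocyte growth factor, had 486, 339.8 and 510.2 in RM-HS and 794 to 1745 (median 932) in RM (fold change -1.29 ± 0.28, adjusted p 0.0317), with RM 1 the highest at 1745. Its medians in HS and Sham were 533 and 537, so the RM libraries stood highest. Kitlg, stem cell factor, had 298, 215 and 331 in RM-HS and 463 to 718 (median 512) in RM (fold change -0.99 ± 0.22, adjusted p 0.0355). It was higher in HS than in Sham (0.81 ± 0.18, adjusted p 0.00134), and the 2 changes differed by -1.80 ± 0.28 (adjusted p 0.000183). Wnt5a, a ligand of non-canonical Wnt signalling, had 185, 178 and 85.5 in RM-HS and 222 to 423 (median 294) in RM (fold change -1.07 ± 0.22, adjusted p 0.027). Nkd2, which restrains Wnt signals through Dishevelled, had 2293, 2252 and 1392 in RM-HS and 3948 to 7161 (median 6077) in RM, without overlap (fold change -1.59 ± 0.29, adjusted p 0.0171). The Nkd2 call was lost only without RM-HS 3, while those of Hgf, Kitlg and Wnt5a were lost in 5, 7 and 4 of the 9 fits that leave out 1 library.

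Cldn3, F11r, Pkp3, Epb41l5 and Crb3, 5 genes of epithelial cell junctions and polarity, were higher in RM-HS. Cldn3, claudin 3 of the tight junction (rn6 chr12:21831341-21832813), had 2028, 3349 and 1744 in RM-HS and 646 to 1389 (median 935) in RM. RM 1, at 1389, was the highest RM library, and the log2 fold change was 1.30 ± 0.29 (limma adjusted p 0.0367), or 0.71 against RM 1 alone. HS and Sham had medians of 2959.5 and 3321, so the RM libraries stood lowest. Also called higher were F11r, the junctional adhesion molecule JAM-A (0.54 ± 0.13, adjusted p 0.0429), Pkp3, plakophilin 3 of desmosomes (0.64 ± 0.15, adjusted p 0.0389), Epb41l5, a polarity protein (0.55 ± 0.11, adjusted p 0.0263), and Crb3, an apical polarity protein (0.50 ± 0.12, adjusted p 0.044), which overlaps Slc25a23. In a list of 25 such genes written after these values had been seen, 5 were called higher and 0 lower, 20 had a positive fold change, and the median was 0.35. Of all 15954 tested rows 0.395% were called higher, and 7992 had a positive fold change. The list was written with values known, so its count of calls was in part fixed in advance. Over the 20 members that were not called the median was 0.26. Without RM 1, 6 were called higher, Llgl2 added, and 1 lower, the polarity gene Pard3 (-0.40, adjusted p 0.0412). Cldn4 (1.36, adjusted p 0.131) and Cdh1 (0.41, adjusted p 0.344) did not pass. The calls of Cldn3, F11r, Pkp3 and Crb3 held only in the fit without RM 1, of the 9 that leave out a library, and that of Epb41l5 in 6.

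Plau, urokinase, the plasminogen activator made by tubule cells, had 48136, 54563 and 37010 in RM-HS and 17492 to 32857 (median 24081) in RM (fold change 0.94 ± 0.19, adjusted p 0.0287), and 0.90 against RM 1 alone. Grb7, an adaptor of receptor tyrosine kinases, had 873, 1095 and 1029 in RM-HS and 285 to 773 (median 383) in RM, where RM 1 was the highest at 773 (fold change 1.20 ± 0.25, adjusted p 0.0289; 0.36 against RM 1 alone). Grb7 had medians of 1226 in HS and 1126 in Sham, so the RM libraries stood lowest. Of the 9 fits that leave out a library, Plau was called in 5 and Grb7 in 4. Levels of nephron segment markers are given as a description, since 84 arrangements allow no p under 0.0238 and no 1 list could pass after adjustment over 19 lists. The summed early proximal tubule markers differed by 0.19 on the log2 scale (exact permutation p 0.381, adjusted over 19 lists 0.658), those of the thick ascending limb by 0.36 (p 0.190, adjusted 0.517), and those of the principal cell by -0.12 (p 0.881, adjusted 0.930), or 0.12 without RM 1. The thick ascending limb markers summed to 153620 to 189800 in RM-HS, 104680 to 146030 in RM 2 to RM 6 and 224220 in RM 1. Without RM 1 they differed by 0.50 (exact permutation p 0.0357, the smallest that 3 against 5 libraries allow, adjusted 0.509). With all RM libraries the mean of their logs differed by 0.08, and 5 of the 10 tested markers had a positive fold change. Whether these markers bear on the junction genes was not tested.

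**Figure D3:**
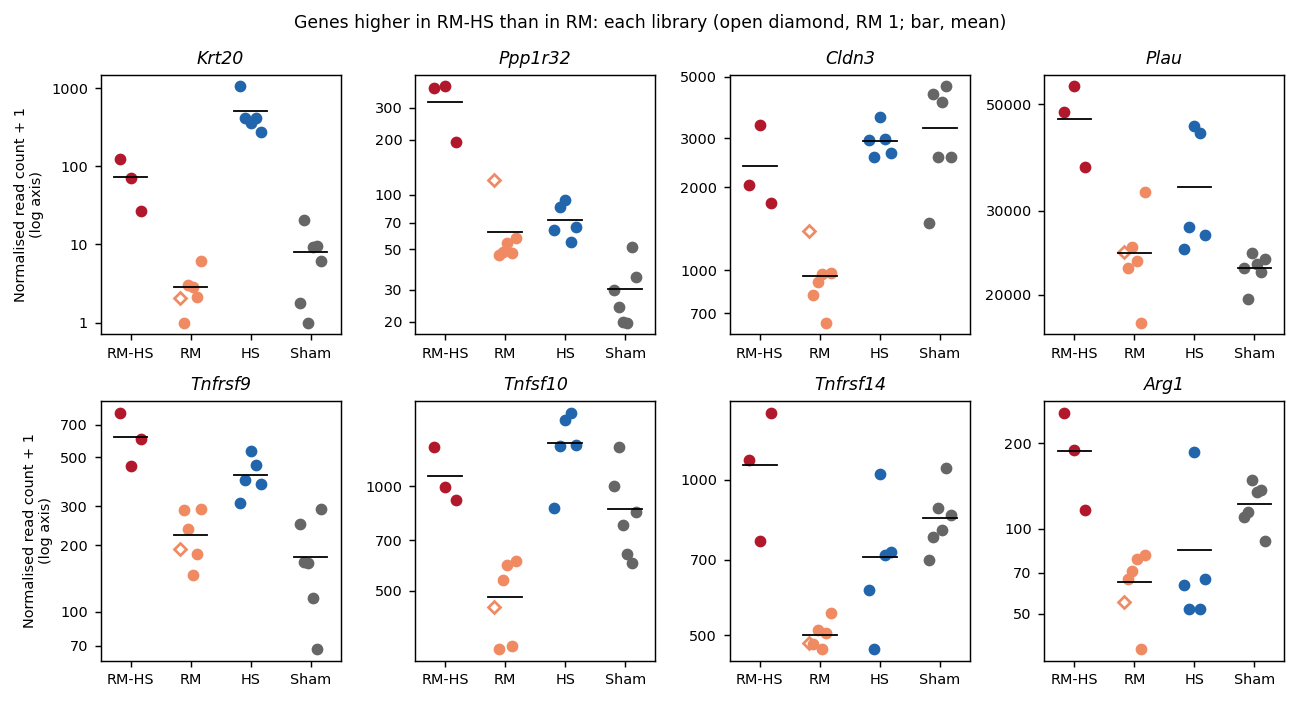
Normalised read counts + 1 (log axis, its range set for each gene) of 8 genes that were higher in RM-HS than in RM, with each library as a point, RM 1 as an open diamond and the group mean as a bar. The 3 RM-HS libraries lie above all 6 RM libraries in each panel, and Krt20 is higher still in HS (275 to 1050.2).

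A ligand and 2 receptors of the tumour necrosis factor family were higher in RM-HS. Tnfsf10, the death ligand TRAIL, had 1296, 996 and 912 in RM-HS and 339 to 608 (median 492) in RM, and its log2 fold change was 1.18 ± 0.24 (limma adjusted p 0.0289) and 1.24 against RM 1 alone. Tnfrsf14, the receptor HVEM, had 1092, 761 and 1348 in RM-HS and 469 to 551 (median 492) in RM (fold change 1.06 ± 0.19, adjusted p 0.0167). Tnfrsf9, the co-stimulatory receptor 4-1BB, had 793, 455 and 600.0 in RM-HS and 145 to 292 (median 213) in RM (fold change 1.48 ± 0.34, adjusted p 0.043). None of the 3 overlapped between the groups. Of 17 tested family members, in a list written after these values had been seen, 3 were called higher and 0 lower, with a median of 0.23, or 0.16 over the 14 others, and Tnf itself had -0.11. Of all tested rows 0.395% were called higher, and the list's count of calls was in part fixed in advance. Between HS and Sham, Tnfrsf9 was higher (1.37 ± 0.29, adjusted p 0.000812) and so was Tnfsf10 (0.65 ± 0.21, adjusted p 0.0152). Tnfrsf14 was not (-0.28 ± 0.16, adjusted p 0.164), and its 2 changes differed by 1.34 ± 0.25 (adjusted p 0.000579). The Tnfrsf9 call was kept only in the fit without RM 1 of the 9 that leave out a library, Tnfsf10 kept its call in 5, and Tnfrsf14 lost its call without RM-HS 1 or RM-HS 3. Tnfaip8, a regulator of cell death induced by tumour necrosis factor, was higher too, at 11368, 8902 and 12331 in RM-HS and 6024 to 7033 (median 6377) in RM (fold change 0.74 ± 0.15, adjusted p 0.0263). Its row overlaps 2 rows with no symbol, and it was called in 6 of the 9 fits.

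Arg1, Pomc and Mbl1 were higher in RM-HS than in RM, and the change differed in each from that between HS and Sham. Medians in HS and Sham were 62.3 and 124 for Arg1, 152 and 394 for Pomc, and 979 and 2065 for Mbl1. For Pomc and Mbl1, RM-HS thus lay near the Sham level, and RM and HS were lower. Arg1, arginase 1, which hydrolyses arginine to urea and ornithine, had 256, 189 and 115 in RM-HS and 36.6 to 79.9 (median 67.6) in RM, without overlap (fold change 1.51 ± 0.35, adjusted p 0.044), and its 2 changes differed by 2.23 ± 0.46 (adjusted p 0.00138). Pomc, the precursor of ACTH and melanocortins, had 328, 378 and 460.3 in RM-HS and 123 to 258 (median 179.9) in RM (fold change 1.13 ± 0.22, adjusted p 0.0263), with RM 1 the highest of RM at 258 (0.57 against it alone). It was lower in HS than in Sham (-1.25 ± 0.19, adjusted p 3.12e-05), a difference between the 2 changes of 2.38 ± 0.29 (adjusted p 3.12e-05). Mbl1, a mannose-binding lectin of the complement system, had 2149, 1594 and 2245 in RM-HS and 679 to 1320.2 (median 1048) in RM (fold change 1.0 ± 0.21, adjusted p 0.0291), and it was lower in HS than in Sham (-1.21 ± 0.18, adjusted p 2.32e-05). The Arg1 call was kept only without RM 1 among the 9 fits that leave out a library, and those of Pomc and Mbl1 in 6 and 5.

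Emcn, Tek and Cd34, 3 genes of the endothelium, were lower in RM-HS. Emcn, endomucin of the capillary and venous endothelium (rn6 chr2:242634399-242714182), had 431, 774 and 432 in RM-HS and 1127 to 1889 (median 1267) in RM, and the log2 fold change was -1.34 ± 0.22 (limma adjusted p 0.0108). Tek, the angiopoietin receptor TIE2, had 245, 475 and 278 in RM-HS and 710.1 to 1658 (median 836) in RM (fold change -1.52 ± 0.28, adjusted p 0.0172). Cd34, a sialomucin of endothelial and progenitor cells, had 132, 216 and 85.5 in RM-HS and 221 to 522 (median 295) in RM (fold change -1.19 ± 0.27, adjusted p 0.0389). For all 3 the groups did not overlap and RM 1 was the highest RM library and far from the rest, at 1889, 1658 and 522. Without it the fold changes were -1.24, -1.35 and -1.04, and each call held. Each was also lower in HS than in Sham, by log2 changes of -1.0 ± 0.19, -1.44 ± 0.24 and -1.39 ± 0.23, and the difference between the 2 changes did not pass for any of them. The calls of Emcn and Tek were lost without RM-HS 1 or RM-HS 3, and that of Cd34 in 6 of the 9 fits.

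Of 9 tested endothelial markers 2 were called lower, Emcn and Tek, 8 had a negative fold change, and the median was -0.26. Of all 15954 tested rows 0.689% were called lower, and 7949 had a negative fold change. Pecam1 (-0.42), Kdr (-0.26), Flt1 (-0.37) and Eng (-0.15) were not called, and Cdh5 had 0.52. The summed level of the list was 12464 to 12934 in RM-HS and 12573 to 19375 in RM, with RM 1 the highest, with a log2 difference of -0.26 (two-sided exact permutation p 0.0714, adjusted over 19 lists 0.517). In bulk tissue, fewer cells of a type and less RNA per cell cannot be told apart. Sele, E-selectin, which cytokines induce on endothelium, had 47.9, 41.9 and 35.6 in RM-HS and 109 to 482 (median 195) in RM (fold change -2.35 ± 0.57, adjusted p 0.0499), and HS and Sham had medians of 6.4 and 54.4. Ldb2, a LIM-domain cofactor, had 29.4, 55.9 and 57 in RM-HS and 123 to 236 (median 181) in RM (fold change -1.89 ± 0.46, adjusted p 0.0499). Both calls held only in the fit without RM 1 among those that leave out a library. Cd93, a lectin-like receptor of endothelial and myeloid cells, went the other way, with 2624, 1424 and 1992 in RM-HS and 738 to 1385 (median 1041) in RM (fold change 0.87 ± 0.21, adjusted p 0.0499), called in 2 of the 9 fits. Podocyte markers had no call among 9, all 9 with a negative fold change and a median of -0.27, and their summed level was 9983.5 to 11638 in RM-HS and 10748 to 13792 in RM (two-sided exact permutation p 0.0476, adjusted 0.517).

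**Figure D4:**
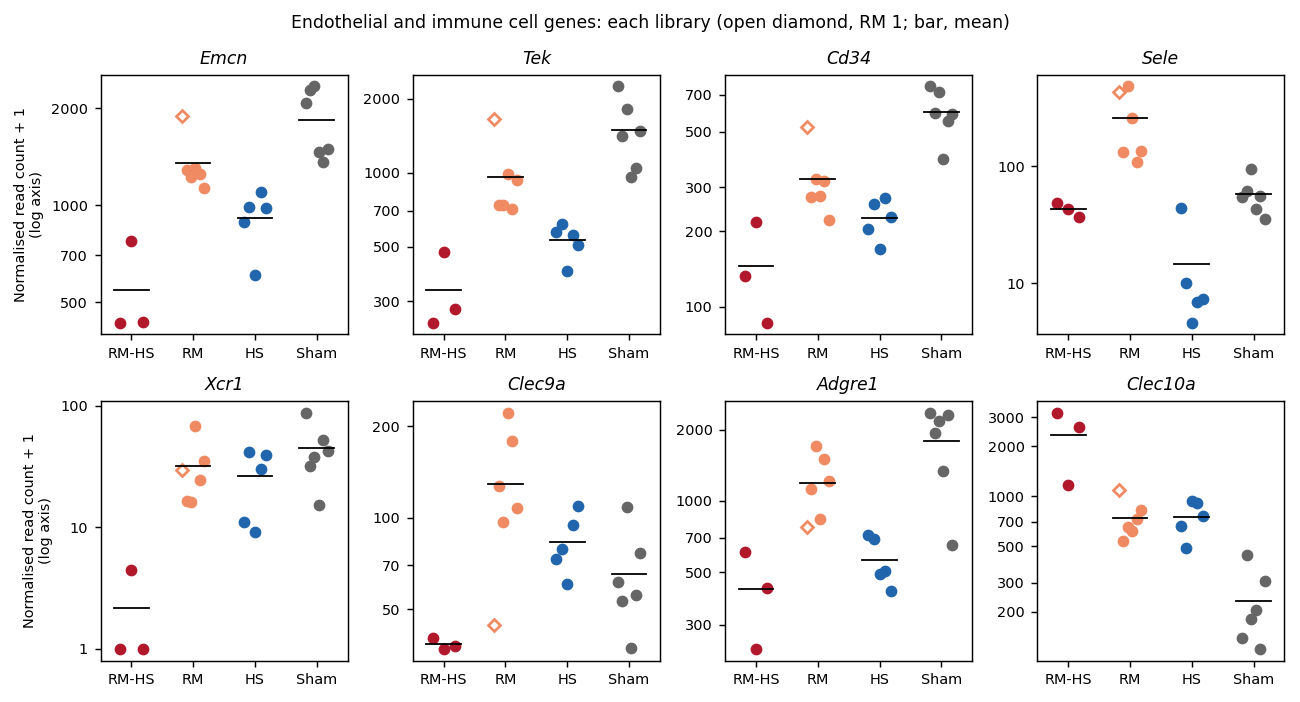
Normalised read counts + 1 (log axis, its range set for each gene) of 4 endothelial and 4 immune cell genes, with each library as a point, RM 1 as an open diamond and the group mean as a bar. RM 1 is the highest RM library for Emcn, Tek and Cd34 and the lowest for Clec9a and Adgre1, and Xcr1 is at 0 in 2 of the 3 RM-HS libraries.

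Xcr1 and Clec9a, markers of cross-presenting dendritic cells, were lower in RM-HS, while Clec10a was higher. They belong to a list of 11 tested dendritic cell genes, written after values had been seen, in which 2 were called lower and 1 higher and the median was -0.29. Its count of calls was thus in part fixed in advance, and of all tested rows 0.689% were called lower and 0.395% higher. The other 8 were not called, among them Flt3 (-1.14), Cadm1 (-0.34), Irf8 (-0.15), Batf3 (0.52) and Sirpa (0.51), and 3 of the 8 had a positive fold change. Xcr1, a chemokine receptor of that cell type, was at 0, 3.49 and 0 in RM-HS and 15.2 to 66.9 (median 25.9) in RM. In raw reads it had 3 in the RM-HS libraries together and 177 in RM, so RM had 25.8 times the normalised RM-HS level, with a 95% interval of 8.70 to 126 for counting error only. The limma adjusted p was 0.00552, and the call was lost without RM-HS 1. Clec9a, a receptor for dead-cell actin on the same cells, had 39.2, 36.1 and 37.1 in RM-HS and 43.4 to 221 (median 117) in RM. RM 1, at 43.4, lay close to the RM-HS libraries, so that the fold change was -1.58 ± 0.39 (adjusted p 0.0499) with all RM libraries, -1.86 ± 0.32 without RM 1 and -0.21 against RM 1 alone. Sham kidneys had 36.5 to 108 (median 57.9), a range that reaches the RM-HS values.

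Adgre1, the macrophage receptor F4/80, had 605, 236 and 426 in RM-HS and 774 to 1706 (median 1169.8) in RM (fold change -1.54 ± 0.36, adjusted p 0.043). It was the only one of 11 tested macrophage markers that was called, beside Csf1r (-0.53), C1qa (-0.21), Cd68 (0.44) and Cd163 (0.58), and the summed macrophage level was 46943 to 51568 in RM-HS and 41074 to 49425 in RM. Clec10a, a galactose-binding lectin of macrophages and dendritic cells, had 3200, 1175 and 2634 in RM-HS and 533 to 1095 (median 689) in RM (fold change 1.57 ± 0.36, adjusted p 0.0389), and 0.97 against RM 1 alone, the highest RM library. It was also higher in HS than in Sham (1.80 ± 0.31, adjusted p 9.5e-05). Klrb1c, a lectin-like receptor of natural killer cells from a family of close paralogues whose reads counting could split, had 26.1, 47.7 and 45.6 in RM-HS and 139 to 252 (median 182) in RM (fold change -2.24 ± 0.47, adjusted p 0.03). None of 11 T and natural killer cell markers and none of 10 neutrophil markers passed limma's threshold, with medians of 0.02 and 0.22. The calls of Clec9a and Adgre1 held only in the fit without RM 1, and those of Clec10a and Klrb1c only without RM 1 or RM-HS 2, among the fits that leave out a library.

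Other genes with a call in every such fit had no common list. Odad4, a docking subunit of ciliary dynein arms (rn6 chr10:88459490-88488237), had 177, 381 and 135 in RM-HS and 528 to 1398 (median 965) in RM, and medians of 146 in HS and 257 in Sham (fold change -2.17 ± 0.31, adjusted p 0.0023). Klhl14, which encodes a Kelch-like protein and whose row overlaps 1 row with no symbol, had 50.1, 50 and 59.9 in RM-HS and 109.6 to 153 (median 129) in RM (fold change -1.29 ± 0.19, adjusted p 0.0023), and Sham kidneys had 429 to 700.2 (median 552). Ahctf1, a nuclear pore assembly factor whose row overlaps Kif28p, had 2632, 2343 and 2496 in RM-HS and 3709 to 4720 (median 4199.8) in RM (fold change -0.74 ± 0.11, adjusted p 0.0023). It was higher in HS than in Sham (0.58 ± 0.09), and the 2 changes differed by -1.32 ± 0.14 (adjusted p 1.12e-05). Arrb1, beta-arrestin 1, which uncouples G-protein-coupled receptors, had 477, 321 and 398 in RM-HS and 616 to 899 (median 727) in RM (fold change -0.90 ± 0.14, adjusted p 0.00508). Ppp1r32, annotated as a regulatory subunit of protein phosphatase 1, had 383, 391 and 192 in RM-HS and 45.7 to 119 (median 50.3) in RM. RM 1 stood at 119 and the other RM libraries at 45.7 to 57, so the fold change was 2.39 ± 0.35 (adjusted p 0.0023) and 1.36 against RM 1 alone.

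Cps1, Amz1, Phf21b and Crispld2 completed the largest changes taken by the naming rule. Cps1, the first enzyme of the urea cycle, had 13.1, 86.1 and 11.4 in RM-HS and 88.8 to 1656 (median 396) in RM (fold change -4.01 ± 0.89, adjusted p 0.0362), and -2.83 against RM 1 alone. Its medians in HS and Sham were 43.2 and 30.1, so the RM median was the highest. Amz1, a metalloprotease, had 13.1, 12.8 and 8.55 in RM-HS and 29.2 to 83 (median 52.4) in RM (fold change -2.07 ± 0.41, adjusted p 0.0263). Phf21b, a PHD finger protein, had 208, 147 and 144 in RM-HS and 35.4 to 72.7 (median 65.7) in RM (fold change 1.42 ± 0.31, adjusted p 0.0355). Crispld2, a secreted cysteine-rich protein, had 1226, 1296 and 1206 in RM-HS and 356 to 1006 (median 438) in RM, where RM 1 stood at 1006 (fold change 1.24 ± 0.29, adjusted p 0.0446; 0.30 against RM 1 alone). Of the 9 fits that leave out a library, Cps1 was called in 3, Amz1 in 5, and Phf21b and Crispld2 in 2 each. Other called genes were chosen after their values were seen. Slc30a1, the zinc exporter ZnT1, had 3079, 2566 and 2106 in RM-HS and 3496 to 5040.1 (median 4152) in RM (fold change -0.73 ± 0.14, adjusted p 0.0222), a call lost only without RM-HS 3. Egr3, an immediate early transcription factor, had 5.44, 4.66 and 1.43 in RM-HS and 20.1 to 65.9 (median 33.2) in RM (fold change -3.02 ± 0.69, adjusted p 0.0413). Pla2g4a, cytosolic phospholipase A2, which frees arachidonic acid, had 252, 261 and 155 in RM-HS and 340.4 to 476 (median 405) in RM (fold change -0.90 ± 0.20, adjusted p 0.0383). Ninj1, which ruptures the plasma membrane in lytic cell death, had 15842, 18029 and 15255 in RM-HS and 10364 to 13972 (median 11251) in RM (fold change 0.49 ± 0.12, adjusted p 0.0499). Gpi, glucose-6-phosphate isomerase, had 11742, 14485 and 12137 in RM-HS and 15857 to 19418 (median 18148) in RM (fold change -0.49 ± 0.09, adjusted p 0.0263), and its row overlaps 1 row with no symbol. Of the 9 fits, Gpi was called in 6, Pla2g4a in 3, Ninj1 in 2 and Egr3 in 1.

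Many stress and immune lists had no call. None passed limma's adjusted threshold among 17 heat shock chaperones (median -0.27), 18 endoplasmic reticulum chaperones (-0.30, with 17 negative), 19 targets of the integrated stress response (0.14), 16 p53 targets (0.19), 20 hypoxia-inducible targets (-0.03), 22 chemokines (0.16), 22 interferon-stimulated genes (-0.01) or 26 complement and acute phase genes (-0.07). Without RM 1, 2 heat shock and 1 endoplasmic reticulum chaperones were called lower and 1 p53 target higher, with no call in the others. Against RM 1 alone the medians of the 2 chaperone lists were 0.14 and -0.01. Among 24 fatty acid oxidation genes and 21 nuclear genes of oxidative phosphorylation 0 were called by limma, while 20 in each list had a positive fold change, with medians of 0.21 and 0.15. Ribosome biogenesis genes, in a list written after values had been seen, are given with and without RM 1. Of 40, 36 had a negative fold change with a median of -0.32 and 0 were called. Without RM 1 the median was -0.42 and 18 were called lower, against 2.0% of all tested rows. Against RM 1 alone the median was 0.13. The list was chosen with values known, so it does not show how far RM 1 mattered in general. Utp20 and Polr1b, a processome component and a subunit of RNA polymerase I, had -0.82 and -0.69 with all RM libraries, and -0.93 and -0.84 without RM 1.

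**Figure D5:**
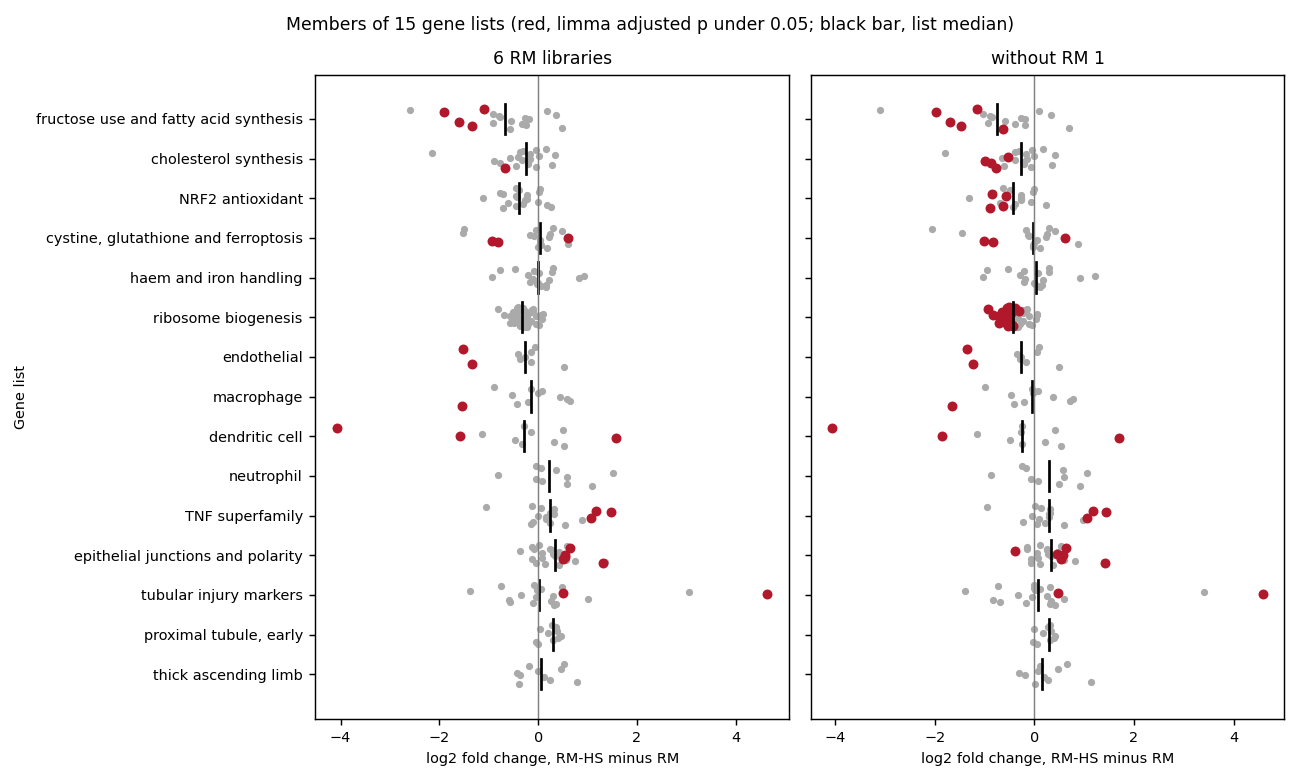
Log2 fold change of RM-HS minus RM for each tested member of 15 gene lists, with all 6 RM libraries (left) and without RM 1 (right), red for a limma adjusted p under 0.05 and a black bar for the list median. The fructose and fatty acid list has a median of -0.68 with 4 members called lower, and the 40 ribosome biogenesis genes have 0 calls on the left and 18 on the right.

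HS against Sham, which shares no library with RM-HS against RM, called 3712 rows higher (23.3%) and 3698 lower (23.2%). Of the 63 rows higher in RM-HS than in RM, 22 were also higher in HS than in Sham (34.9% of the 63 and 0.593% of the 3712), and 13 were lower (20.6%). Of the 110 lower rows, 36 were also lower in HS (32.7% of the 110 and 0.974% of the 3698), and 30 were higher (27.3%). The Sham libraries differed among themselves, and with Sham 1 and Sham 6 alone 14.6% of all rows were called higher and 11.1% lower. A fit with fewer Sham libraries can call fewer rows for that reason alone. Of the 63 rows 13 were then higher and 10 lower, and of the 110 rows 23 were lower and 11 higher. Genes called the same way in both comparisons included Krt20, Clec10a, Cd93, Epb41l5 and F11r among the higher and Slc2a5, Emcn, Tek, Cd34, Gclc, Gclm and Adgre1 among the lower. Called in opposite directions were Acly, Kitlg, Slc30a1, Cyp51 and Ahctf1, lower in RM-HS than in RM and higher in HS than in Sham, and Pomc and Mbl1 with the reverse.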

How the data were processed

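Kidney RNA of 20 rat libraries was sequenced as stranded, paired-end mRNA libraries, per the labels' protocols. Reads were checked with FastQC 0.11.2, Picard 1.119 and SAMtools 1.0, aligned with STAR to rn6 and counted per gene with featureCounts (Subread 1.5.0), per the submitters' processing notes. The deposited signal values are read counts that the authors normalised with DESeq2, per the same notes, and whole reads recovered from them came within 0.1 read of a whole number for 100.0% of values. The sources used here do not say how strand and multi-mapping reads were handled.

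Libraries were grouped by disease label, and numbered in the order in which they are listed. Log2(value + 1) of rows with at least 10 in at least 3 libraries was fitted with limma 3.58.1 in R 4.3.3, with 4 group means over 20 libraries and a mean-variance trend, and p-values were adjusted over all 15954 rows. Summed marker levels were compared by an exact permutation test. Counting error was small for most genes at this depth. Alternatives were pseudocounts, filters, scalings, array weights, the groups in the fit, the name letter, each library left out, and count models, edgeR 4.0.16 or DESeq2 1.42.0, on the recovered reads, rounded to whole numbers. The procedure was tested on simulated data. Members and lists were chosen with earlier results of these data known. Genes were named by a rule that took the 12 largest changes each way among called rows with a symbol, no overlap between groups and a mean of 50 or more in the group that was higher. The rule also named fixed injury and stress genes whatever their values, namely Havcr1, Lcn2, Hmox1, Clu, Spp1, Slc7a11 and Krt20. Of these, Krt20 was also among the 12 largest rises. The other genes were chosen after their values were seen, and the part of the rule for lists with at least 1 in 4 members called named 0 genes. A few genes are not reported here.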

Additional observations from a re-analysis of the deposited data

Results flagged for a closer look

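Of 189 groups of libraries examined over 63 named genes, 18 had 1 library far from the rest. Chance alone would give about 1 in 20 for independent, normally distributed values. These were untransformed values of genes that share libraries, so nothing is read from the count. RM 1 was the library far from the rest for Ppp1r32 (118.6), Hmox1 (109400), Cd34 (521.9), Gclm (63180), Emcn (1889) and Tek (1658). Among the other RM libraries it was RM 3 for Phf21b (35.43) and Spp1 (221900), RM 2 for Gclc (216600) and RM 4 for Xcr1 (66.87). In HS it was HS 1 for Krt20 (1050) and Sele (43.2), HS 2 for Hmox1 (36020), HS 3 for Arg1 (184.9) and HS 4 for Mbl1 (648.3). In Sham it was Sham 6 for Hmox1 (12910) and Gpx1 (68880), and Sham 1 for Acly (4431).

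In 31 of the 63 genes the RM-HS minus RM change differed from the HS minus Sham change by limma's test of that difference, which 31.7% of all tested rows passed. Most of the 63 were chosen for a large RM-HS minus RM change, which is part of that difference, so nothing is read from the count. The difference of the 2 changes (log2) was positive for Arg1 (2.23), Phf21b (1.18), Cldn3 (1.36), Crispld2 (1.11), Grb7 (1.17), Ggct (0.93), Pomc (2.38), Mbl1 (2.21), Klhl14 (0.67) and Tnfrsf14 (1.34). For metabolic genes it was -1.37 (Fasn), -0.86 (Tkfc), -1.72 (Acly), -1.11 (Cyp51), -0.86 (Tm6sf2) and -5.00 (Cps1). For stress and injury genes it was -5.62 (Havcr1), -1.69 (Clu), -3.51 (Slc7a11), -3.81 (Hmox1) and -1.30 (Pir). For growth factors it was -2.29 (Btc), -0.98 (Wnt5a), -1.36 (Hgf) and -1.80 (Kitlg). For other genes it was -1.43 (Odad4), -1.98 (Clec9a), -0.61 (Arrb1), -1.04 (Slc30a1), -1.32 (Ahctf1) and -3.24 (Xcr1).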

How the results depend on the processing

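With 3 RM-HS libraries the counts of called genes moved with most choices, while scaling, pseudocount, filter and edgeR kept them within 1.5 times of 63 higher and 110 lower. DESeq2 called 188 higher and 311 lower, array weights gave 117 and 216, a fit of the 2 groups alone gave 12 and 30, and the name letter as a covariate gave 0 and 0 by limma. The libraries named R alone also gave 0 and 0, from a fit with 1 RM library, which says little of stability. Leaving out 1 library gave 1 to 161 higher and 18 to 319 lower. With Sham 1 and Sham 6 alone, HS against Sham gave 2337 higher and 1768 lower in place of 3712 and 3698, and the difference between the 2 changes gave 1309 higher in place of 2376. For that difference the name letter gave 206 higher and 411 lower, and the libraries named R 0 and 0, in place of 2376 and 2678. The sign turned for 3 genes that were not called. Spp1 (0.06) became -0.24 against RM 1 alone and ranged between -0.43 and 0.48 when a library was left out (-0.01, -0.07 and -0.13 without RM 2, 4 and 5, and -0.43 without RM-HS 2), Clu became 0.0216 and Slc7a11 1.27 against RM 1 alone. Summed markers turned without RM 1 for principal cells (0.12), intercalated cells (0.0248) and neutrophils (-0.15), and for macrophages as a mean of logs (-0.18). The cause of these moves was not tested. No paired analysis was possible because the library numbers only follow listing order. For genes with few reads, such as Xcr1, Krt20 and Egr3, counting error adds to the spread between libraries.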

Other observations

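Summed marker levels of other tissues and cells that kidney samples could carry are given as values, since the exact permutation test could not pass for 1 list alone after adjustment over 19. Skeletal muscle markers summed to 179 to 326 in RM-HS and 48.6 to 230 in RM (6 of 10 tested, adjusted p 0.603), and urothelium markers to 84.9 to 879 in RM-HS and 32.5 to 962 in RM, with RM 1 the highest (5 of 8 tested, adjusted p 0.870). Markers of adrenal tissue summed to 65.3 to 107 in RM-HS and 36.8 to 93.2 in RM (4 of 7 tested, adjusted p 0.633). B and plasma cell markers summed to 127 to 170 in RM-HS and 62.1 to 191 in RM (3 of 6 tested, adjusted p 0.517).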
